A study of Mus musculus with 5 samples.

Results

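The MS4A genes *Ms4a4c*, *Ms4a6b* and *Ms4a6c* lie together on mouse chromosome 19 and encode small membrane proteins that cross the membrane repeatedly. They were chosen by name, and all 3 were found among the 1355 genes of the deposited table, which holds 5 MS4A genes of chromosome 19 in all. Bone marrow-derived dendritic cells (BMDCs) were profiled by RNA-seq in 3 samples of *Irf8*-OE mice and 2 of control mice, and the comparison asks how forced expression of IRF8, a transcription factor of the dendritic cell and monocyte lineages, changes their transcripts. *Irf8*-OE mice carry an *Irf8* transgene behind a loxP-flanked stop (*Irf8* CAG-LSL), which is released by Cre under the *Itgax* (CD11c) promoter. The controls are wild type in the sample labels and *Irf8* CAG-LSL in the paper. In both groups, marrow of 8-week-old C57BL/6 mice, male by the labels, was grown in 5 ng/ml GM-CSF and 200 ng/ml Flt3L, and non-adherent cells were replated on day 9 and collected on days 15 to 16. The treatment label adds TNF-α for all 5 samples.

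MS4A proteins act as subunits or partners of other receptors at the cell surface. CD20 of B cells (*Ms4a1*) and the beta chain of the high-affinity IgE receptor of mast cells (*Ms4a2*) are the best known members, and other members mark monocytes, macrophages or T cells. The mouse family has expanded by gene duplication into the Ms4a4 and Ms4a6 groups, to which the 3 genes belong. IRF8 acts in myeloid cells at interferon-response type DNA elements, alone or with partners such as PU.1.

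The genes are transcribed from the same strand. *Ms4a4c* (ENSMUSG00000024675) spans chr19:11404770-11427246, *Ms4a6c* (ENSMUSG00000079419) spans chr19:11469366-11482192 and *Ms4a6b* (ENSMUSG00000024677) spans chr19:11516512-11531256, all on the plus strand of mm10 (GRCm38). Because the genes rose together, their promoters were taken as RefSeq gives them for GRCm38.p6, from 250 bases before the start site to 50 after it, and searched for GAAANNGAA, a tandem core of elements bound by the IRF family. The promoter of *Ms4a4c* is shown here as the one without a match.

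*Ms4a4c* promoter, chr19:11407411-11407710: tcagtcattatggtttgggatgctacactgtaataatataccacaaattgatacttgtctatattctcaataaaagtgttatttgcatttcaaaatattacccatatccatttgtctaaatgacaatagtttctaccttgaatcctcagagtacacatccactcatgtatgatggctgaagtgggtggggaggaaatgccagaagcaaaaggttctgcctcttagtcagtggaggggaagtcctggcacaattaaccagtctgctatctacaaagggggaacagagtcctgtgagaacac

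The promoters of *Ms4a6c* and *Ms4a6b* each hold 1 match, and that of *Ms4a4c* holds none in this window. Aligned over the whole window, the *Ms4a6b* and *Ms4a6c* promoters were 64.0% identical, against 50.7% and 51.7% for each with *Ms4a4c*. The promoter of *Ms4a2* gave 51.7% to 52.3% with these 3, so the values for *Ms4a4c* show no particular likeness. GAAANNGAA was found on either strand in 8.56% of 32851 RefSeq promoter windows, and in those of 4 of 18 *Ms4a* genes with a window, the others being *Ms4a7* and *Ms4a18*, neither of which is listed. The composite ETS-IRF core GGAANNGAA, which there does not overlap the first match, occurred once in the *Ms4a6c* window, on the minus strand at positions 28 to 36, and in 8.24% of all windows. Searches for TTCNNNGAA, the core of interferon gamma-activated sites, for TGANTCA, bound by AP-1, and for TATAAA found no match in the 3 promoters, while 8.3%, 7.81% and 13.6% of all windows held one. The RefSeq start of *Ms4a6c* lies 2 bases from the start of the gene in the deposited table, but those of *Ms4a6b* and *Ms4a4c* lie 2047 and 2891 bases inside it. A match describes letters, not binding.

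The values are the authors' normalized counts, in which each sample's reads were scaled by 1 size factor and gene length was not considered. Between 646123 and 1062127 reads per sample fell on the listed genes. Genes that the authors did not call between these groups are not analysed here, so a listed gene already differs by selection and the tests below describe it without independent support. By limma, 58.1% of the 1355 listed genes were called higher in *Irf8*-OE and 41% lower, and the groups did not overlap in 100% of them. The split depends on scaling, with 509 genes higher and 522 lower after quantile normalization, 797 and 276 with equal totals over the listed genes, and 787 and 556 as scaled by the authors. The level of *Irf8* itself was 6560 ± 561 normalized counts (SD, n = 3) in the overexpressing cells against 2791 ± 62.3 (SD, n = 2). *Xist*, which is transcribed from the inactive X chromosome, averaged 12437 normalized counts in the *Irf8*-OE group and 0.562 in the control group, and *Ddx3y*, *Eif2s3y*, *Kdm5d* and *Uty* on the Y chromosome were at 0 in each of the 3 *Irf8*-OE samples but averaged 511 to 1377 in the controls. The *Irf8*-OE libraries thus go against the label male, and a difference of sex cannot be told apart from the genotype in any result below.

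All 3 genes were higher in *Irf8*-OE BMDCs, which is the direction of 58.1% of the listed genes. *Ms4a6b* changed most, by 9.05-fold in the means, and *Ms4a6c* and *Ms4a4c* changed by 3.95-fold and 3.63-fold. On the log2 scale these are 3.13, 1.98 and 1.78, beside a median of 1.83 over all genes called higher, so *Ms4a6c* and *Ms4a4c* stood near that median and *Ms4a6b* above it.

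*Ms4a6b*, a gene also known from T cells, was at 248, 254 and 302 normalized counts in *Irf8*-OE samples 1, 2 and 3, against 31.5 and 27.8 in controls 1 and 2. The lowest *Irf8*-OE sample was far above the higher control, and *Irf8*-OE sample 3 stood highest. The group means were 268 ± 29.7 (SD, n = 3) and 29.6 ± 2.57 (SD, n = 2), and limma gave 3.13 ± 0.15 (SE) for the log2 fold change, with an adjusted p of 2.6e-06. The SD of *Irf8*-OE exceeded the 16.1 that counting alone gives at this mean, whereas the SD of the controls was below the 5.56 of counting.

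*Ms4a6c*, which is known from monocytes and macrophages, was the most abundant of the 3. The *Irf8*-OE samples gave 686, 691 and 652 normalized counts and the controls 162 and 180. Within each group these values lay close together, with SDs of 21.4 and 13.1, both below the 25.6 and 13.4 expected from counting. The means were 676 (n = 3) and 171 (n = 2), which is 1.98 ± 0.09 (SE) on the log2 scale, with an adjusted p of 2e-06 by limma. A noncoding gene on the opposite strand, *BE692007*, overlaps 1088 of the 2050 exon bases of *Ms4a6c* (53.1%) and is also listed, at 20.5 ± 3.57 normalized counts (SD, n = 2) in the controls rising to 64.1 ± 11.8 (SD, n = 3), or by 1.59 on the log2 scale. The sources used here do not state strand-specific counting, and without it reads of the shared bases cannot be assigned to either gene.

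*Ms4a4c*, a myeloid gene that responds to interferon in mice, was the least abundant. The *Irf8*-OE samples gave 44.1, 52.3 and 44.2 normalized counts, from 46, 56 and 44 reads, and the controls 12.4 and 13.4, from 11 and 14 reads. Both controls were far below each *Irf8*-OE sample. With 46.9 ± 4.7 (SD, n = 3) against 12.9 ± 0.758 (SD, n = 2), its change was 1.78 ± 0.23 (SE) on the log2 scale, and limma put the adjusted p at 0.00026. The log2 change was 1.10 after quantile normalization and 2.40 with equal totals over the listed genes, a scaling that also took *Ms4a6b* to 3.78 and *Ms4a6c* to 2.63, and the calls of all 3 held in both. Counting limits this gene more than the others. The ratio of *Irf8*-OE to control reads, 3.63, has an exact 95% counting interval of 2.36 to 5.79, where those of *Ms4a6c* and *Ms4a6b* reach from 3.51 to 4.44 and from 6.93 to 12.1. These intervals cover counting error only.

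**Figure D1:**
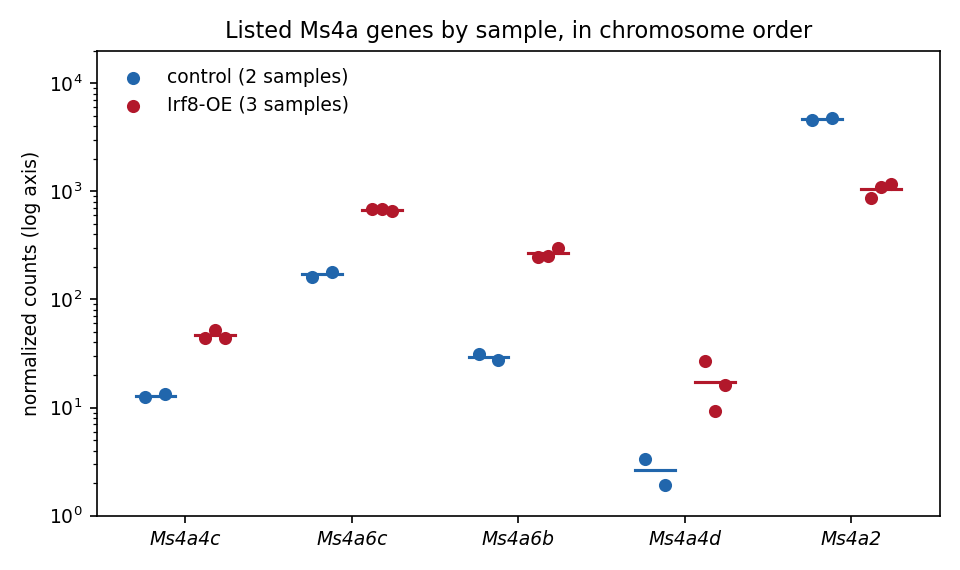
Normalized counts (log axis) of the 5 listed MS4A genes of chromosome 19, from left to right in chromosome order, with 1 point per sample and a bar at each group's mean. *Ms4a4c*, *Ms4a6c*, *Ms4a6b* and *Ms4a4d* were higher in each *Irf8*-OE sample than in each control, and *Ms4a2* was lower.

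Ratios between the genes within a sample do not depend on its size factor, apart from the pseudocount of 1, and they were used to ask whether the 3 genes changed by unequal amounts. The log2 ratio of *Ms4a6b* to *Ms4a6c* was -2.33 and -2.65 in the controls and -1.46, -1.44 and -1.11 in *Irf8*-OE samples 1, 2 and 3. It was therefore higher in each *Irf8*-OE sample, with a difference of 1.15 (standard error 0.19). The log2 ratio of *Ms4a4c* to *Ms4a6b* was -2.47, -2.26 and -2.75 in *Irf8*-OE, below the -1.28 and -1.0 of the controls, a difference of -1.35 (standard error 0.21). *Ms4a4c* and *Ms4a6c* changed by more similar amounts. Their log2 ratio was -3.93, -3.70 and -3.85 in *Irf8*-OE and -3.61 and -3.65 in the controls, a difference of -0.20 (standard error 0.09), and the nearest samples of the groups almost touched. That difference was -0.13 with a pseudocount of 0.1, -0.61 with one of 10 and -0.80 after quantile normalization. Each of the 3 ratios follows from the other 2, so the pairs are not separate results. In all 3 pairs the groups did not overlap, but the share of other pairs of listed genes without overlap was not computed. Exact permutation gave p = 0.1 one-sided and p = 0.2 two-sided for each pair. These p-values are the smallest that 10 arrangements of the samples allow, so no pair could pass 0.05, with or without adjustment over the 3 pairs.

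**Figure D2:**
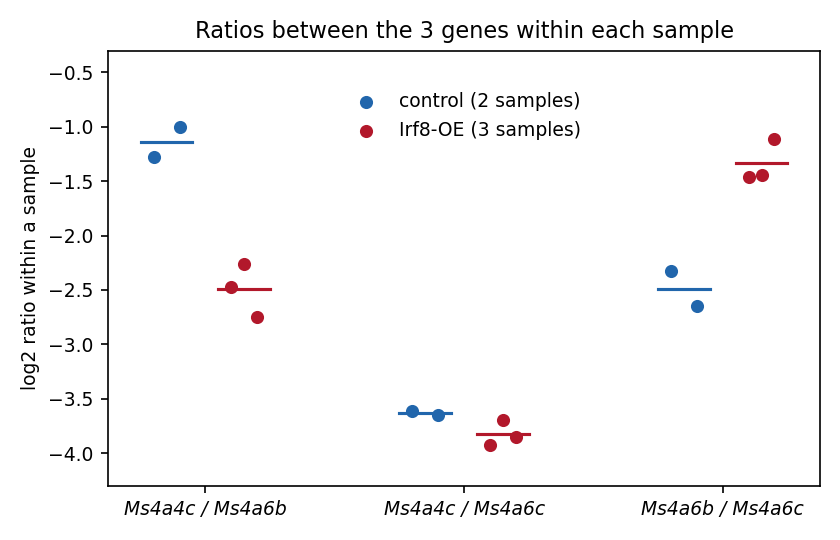
Log2 ratio within each sample of 1 MS4A gene to another (vertical axis) for the 3 pairs, with 1 point per sample and a bar at the group mean. The difference of the group means (*Irf8*-OE minus control) is -1.35 for *Ms4a4c* to *Ms4a6b*, 1.15 for *Ms4a6b* to *Ms4a6c* and -0.20 for *Ms4a4c* to *Ms4a6c*.

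Levels of different genes were compared per kilobase of the gene length in the table. *Ms4a6c* was highest in both groups, at 330 ± 10.4 normalized counts per kilobase (SD, n = 3) with *Irf8*-OE against 83.5 ± 6.41 (SD, n = 2) in control cells. In *Irf8*-OE, *Ms4a6b* followed at 59.8 ± 6.62 and *Ms4a4c* at 26.8 ± 2.69, without overlap between the 3 genes. In the controls, *Ms4a4c* at 7.37 ± 0.433 and *Ms4a6b* at 6.61 ± 0.574 were neighbours. Their samples did not overlap, but the nearest, at 7.06 and 7.02, almost met. The log2 ratio of *Ms4a6b* to *Ms4a4c* per kilobase there was -0.16, smaller in size than its SD of 0.21 (n = 2). This order depends on the gene model. The length of *Ms4a6b* in the table, 4485 bases, covers all exons of its 5 GENCODE vM21 transcripts, of which 2 are protein-coding, and the longest coding one has 2680 bases in 8 exons. With such lengths, an alternative added after the values were seen, *Ms4a6b* stood above *Ms4a4c* in the controls too, at 11.1 against 7.49 normalized counts per kilobase, and at 100 against 27.2 in *Irf8*-OE.

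**Figure D3:**
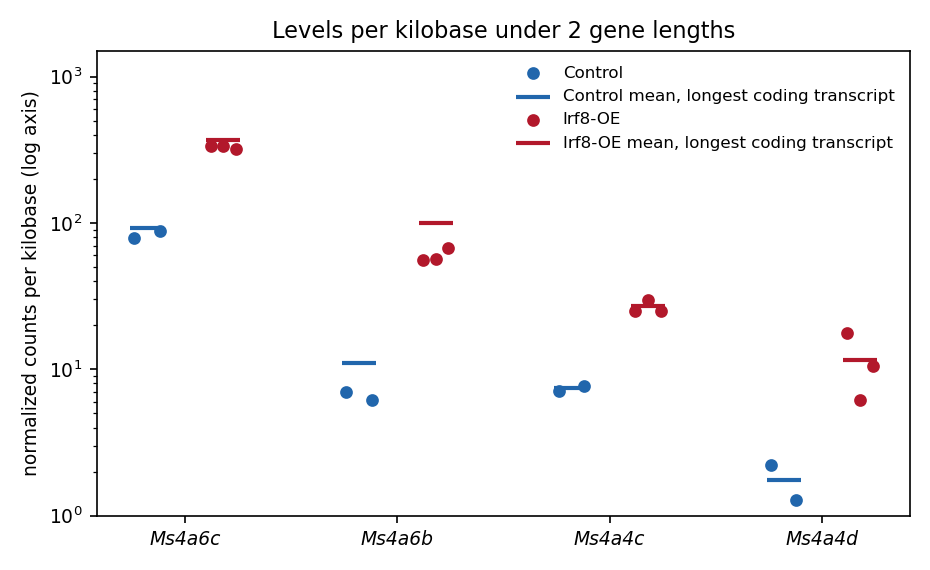
Normalized counts per kilobase (log axis) of the 4 MS4A genes that were higher in *Irf8*-OE, with points for samples by the length in the table and a bar for the group mean by the longest coding transcript. In the controls *Ms4a6b* lies near *Ms4a4c* by the length in the table (points) and above it by the longest coding transcript (bars), and in *Irf8*-OE it lies above by both.

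GENCODE vM21 names 19 *Ms4a* genes between chr19:10962293-11640851. Along the chromosome, *Ms4a4c* is 12th, *Ms4a6c* 14th and *Ms4a6b* 15th, followed at once by *Ms4a4d*. *Ms4a4b*, known from T cells, lies between *Ms4a4c* and *Ms4a6c*, and the protein-coding gene *Gm8369* between *Ms4a6c* and *Ms4a6b*, and neither is listed. From *Ms4a4c* to *Ms4a4d* the 4 listed *Ms4a* genes are on the plus strand and were higher, with log2 fold changes of 1.78, 1.98, 3.13 and 2.25 in chromosome order. The other listed gene of this interval, *BE692007*, is on the minus strand and was also higher, by 1.59. *Ms4a2*, on the minus strand 84.3 kb beyond the end of *Ms4a6b*, was lower. The next listed gene on the other side was *Cd6*, 575 kb away, a T cell surface receptor that was also higher, at 51 ± 8.94 (SD, n = 3) against 4.08 ± 1.01 (SD, n = 2) normalized counts. *Ms4a1*, *Ms4a7* and *Ms4a3*, which mark B cells, macrophages and myeloid progenitors, are not listed. Of the 41 listed genes of chromosome 19, 31 were called higher and 10 lower, beside 58.1% and 41% of all listed genes.

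**Figure D4:**
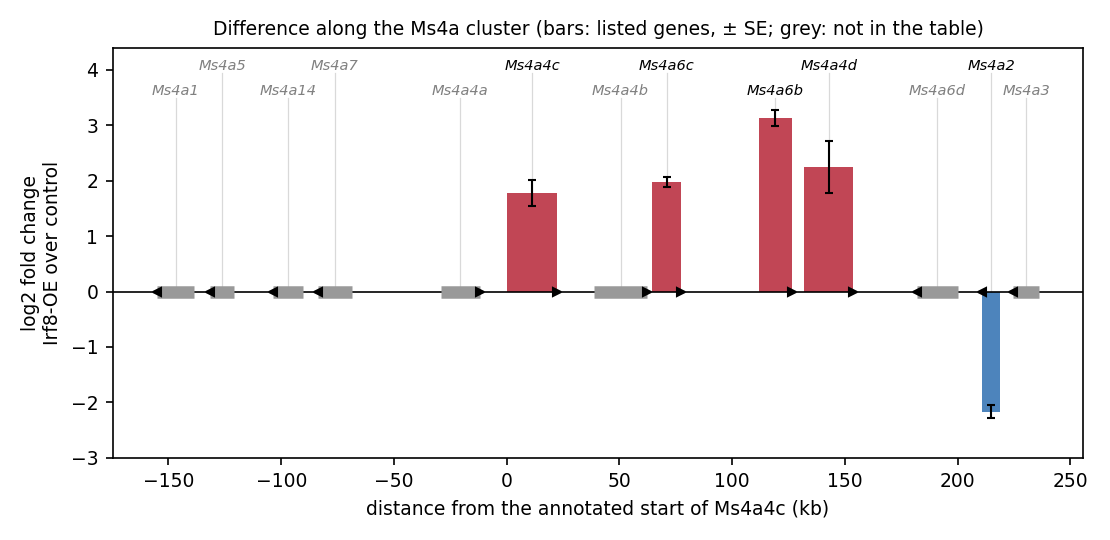
Log2 fold change of *Irf8*-OE over control (vertical axis, bars with standard errors) against the distance from the annotated start of *Ms4a4c* in kilobases, for *Ms4a1* to *Ms4a3*. Bars span each listed gene, grey boxes are genes that are not in the table, and arrowheads give the strand. The 4 genes from *Ms4a4c* to *Ms4a4d* lie above 0 and *Ms4a2* below it.

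Sequences of the genes fell into the Ms4a4 and Ms4a6 groups. Over the coding sequence *Ms4a6c* and *Ms4a6b* were 74.9% identical, and *Ms4a6b* and the unlisted *Ms4a6d* 80.0%. *Ms4a4c* was 91.7% identical to *Ms4a4b*, 86.6% to *Ms4a4d*, and 53.7% and 53.1% to *Ms4a6b* and *Ms4a6c*, beside 51.9% to *Ms4a2*. The share of 50-base words of a gene's transcripts that also occur in another *Ms4a* gene was 8.19% for *Ms4a4c*, 5.85% for *Ms4a6c* and 3.44% for *Ms4a6b*, and how the authors counted such reads is not given in the sources used here.

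The other listed relatives went both ways. For *Ms4a4d* the *Irf8*-OE samples gave 26.8, 9.34 and 16.1 normalized counts and the controls 3.37 and 1.92, from 3 and 2 reads. *Irf8*-OE sample 1 was highest by a wide margin and the controls lay at or under the floor of 3 reads, so the ratio of reads, 6.71, has an exact 95% counting interval of 2.7 to 21.5. Its call (limma, adjusted p = 0.0024) was lost after quantile normalization, where the log2 change was 0.67 (limma, adjusted p = 0.3). *Tmem176a* and *Tmem176b*, MS4A-related genes that lie side by side on chromosome 6, rose by 1.25 and 1.08 on the log2 scale, to 1540 ± 22.9 and 2409 ± 36.2 (SD, n = 3) normalized counts from 648 ± 4.14 and 1136 ± 46.1 (SD, n = 2). *Ms4a2* stood at 4603 and 4783 normalized counts in the controls and at 877, 1094 and 1172 in *Irf8*-OE, a change of -2.17 ± 0.12 (SE) on the log2 scale with an adjusted p of 4.5e-06 by limma. Of 23 genes of the MS4A family list, 7 are in the table, 6 of them called higher and 1 lower, beside 58.1% and 41% of all listed genes.

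*Ms4a2* fell together with its receptor partner and with other mast cell genes. *Fcer1a*, the alpha chain of the IgE receptor, went from 5221 ± 5.24 (SD, n = 2) normalized counts in the controls to 1370 ± 44.1 (SD, n = 3). Of 20 genes of a mast cell and basophil list, 13 were listed, of which 11 were lower, *Ms4a2* among them, and 2, *Mcpt8* and *Prss34*, higher, beside 41% lower and 58.1% higher among all listed genes. The summed level of the 13 was 42198 to 46252 normalized counts in *Irf8*-OE and 264961 to 269996 in the controls. *Cpa3*, a mast cell protease, had means of 22296 and 177303 of these. It fell by 3.00 on the log2 scale, but no fall was left after quantile normalization. That setting gives genes of equal rank the same value in every sample, so it can remove a difference of the most abundant genes. In that setting 10 genes of the list were called lower, and 8 were with equal totals over the listed genes. In these bulk samples, fewer cells of a type and less RNA per cell cannot be told apart. Of 14 Fc receptor genes 3 were listed, 2 higher and 1, *Fcer1a*, lower, beside the same shares of all listed genes. The 2 were *Fcgr1* (CD64) and *Fcgrt*, the neonatal Fc receptor, with log2 fold changes of 1.44 and 1.28.

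Markers of several other cell types also differed between the groups, and their part in the result for the 3 genes was not tested. The counts that follow stand beside 58.1% higher and 41% lower among all listed genes. In the macrophage list, 7 of 23 genes were listed and all 7 were called higher, with *C1qa* at 3.72, *C1qb* at 2.19 and *C1qc* at 2.46 on the log2 scale. These 7 summed to 22979 to 27752 normalized counts in *Irf8*-OE and 4616 to 4799 in the controls. In the monocyte list 7 of 18 genes were listed, 5 of them higher and 2 lower. *Ly6c2*, a marker of classical monocytes, rose by 1.69 on the log2 scale, while *F13a1* fell, and the sum was 9847 to 9954 against 25200 to 25552. Of 16 T and NK cell markers 6 were listed, 5 higher and 1, *Gzmb*, lower. Their sum was 432 to 493 against 1153 to 1271, of which *Gzmb* had means of 375 and 1189. *Cd3e*, *Trbc1* and *Trbc2* had at most 3 reads in each control. After quantile normalization, a count added after the values were seen, 0 of these T and NK cell markers and 0 of the B cell markers were called higher by limma, with 2 of each list higher at an unadjusted p under 0.05, while edgeR on recovered reads with the authors' scaling called 5 and 3. No listed gene of either list changed direction. In the plasma cell list 6 of 11 genes were listed and all 6 were higher (5 after quantile normalization). They summed to 4824 to 5612 in *Irf8*-OE against 309 to 352. Of 17 B cell markers 4 were listed and were split, with *Cd79a*, *Cd79b* and *Ebf1* higher and *Bank1* lower. They summed to 172 to 205 and 178 to 215. The call of *Bank1* was lost with equal totals. Of 14 stromal genes 8 were listed, 7 higher and 1 lower (12364 to 13471 against 3826 to 3956). Of 15 neutrophil genes 5 were listed, 4 higher and 1 lower (2143 to 2275 against 607 to 697).

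Dendritic cell markers also changed in both directions. Of 17 cDC1 genes 5 were listed. Among these, 4 were higher, *Itgae* (CD103), *Tlr11*, *Sept3* and *Irf8*, and 1, *Cd24a*, was lower. *Irf8* is the gene overexpressed by design, so its rise does not describe the cell type. Their sum was 10339 to 10969 against 12583 to 13240. In this sum *Irf8* had means of 6560 in *Irf8*-OE and 2791 in the controls. *Cd24a* had means of 3855 and 10057, and its call was lost by quantile normalization and with equal totals. Of 12 cDC2 genes 4 were listed, 3 higher and 1 lower (4667 to 4810 against 2201 to 2233). Of 12 plasmacytoid genes 2 were listed and 2 were higher, at 26 to 41 against 0 to 4. After quantile normalization 3 cDC1 genes, 2 cDC2 genes and 1 plasmacytoid gene were still called higher. *Xcr1*, *Clec9a* and *Batf3*, which define cDC1s, are not listed, so the dendritic cell label could not be checked against them here.

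Listed genes of the type I interferon response were higher, as *Ms4a4c* was. In a type I interferon list of 61 genes, 26 were listed and all 26 were called higher (21 after quantile normalization), against 58.1% of all listed genes, with a median log2 fold change of 1.74 beside 1.83 over all genes called higher. The most abundant were *Ifitm3* at 1.24, *Slfn5* at 1.07 and *Oas1a* at 1.15 on the log2 scale. Of 25 interferon gamma genes 4 were listed and went both ways. *Cxcl9*, *Cxcl10* and *Iigp1* were higher, 2 of them still called after quantile normalization. *Socs1*, an inhibitor of cytokine signaling, was lower, a call that was lost with equal totals.

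The listed genes whose pattern over the 5 samples was closest to each MS4A gene were found among those with a mean of at least 100 normalized counts, by the root mean square difference of centred log2 values. For *Ms4a4c* these were *Syt13* at 0.064, *Ifi204*, an interferon-induced DNA sensor, at 0.080 and *Nt5e* (CD73) at 0.081. For *Ms4a6c* the closest were *Col1a2* at 0.047, *Fcrls* at 0.054 and *Dkk3* at 0.060. *Ms4a6b* was closest to *Mef2c*, a myeloid and lymphoid transcription factor, at 0.077, and then to *Olfm4* and *Postn*, both at 0.115. With 2 groups and 5 samples, this likeness mainly describes a similar difference between the groups.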

How the data were processed

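RNA-seq of poly(A)-selected RNA from BMDCs was compared between 3 *Irf8*-OE and 2 control samples, grouped by the sample titles. The submitters' processing notes name fastp, HISAT2 2.0.5, featureCounts 1.5.0-p3, DESeq2 1.20.0, edgeR 3.22.5 and mm10, with no roles. The signal values that the authors deposited are reads per gene divided by 1 size factor per sample. Their table also holds, per the file headers, a group mean signal, a log2 fold change and p-values by the authors, which were not used. Only genes that had passed the authors' thresholds are listed.

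Log2(normalized counts + 1) of all 1355 genes was fitted with limma 3.58.1 (R 4.3.3, trend, no covariates). A gene was called where its Benjamini-Hochberg adjusted p was under 0.05 and its log2 fold change above 1 in size, as the authors' list requires. Whole reads (tolerance 0.001) were recovered for 100% of the values of every sample, and edgeR 4.0.16 and DESeq2 1.42.0 were run on them as alternatives. Since 1 read is worth 1.0043 in *Irf8*-OE sample 3, too close to 1 for a strict check of steps, edgeR was also run without that sample. Only the fits by limma, edgeR and DESeq2 were tested on simulated counts, in which most genes did not differ, unlike the listed genes. No source says that samples came from separate animals, so p-values measure the spread between these samples.

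Named genes were the 3 MS4A genes, other listed family members, *Irf8*, listed neighbours on chromosome 19, the 3 closest patterns per gene, and up to 3 abundant genes of each list. Sex-linked genes and further genes of short counts were named after their values were seen. Members and lists were chosen with earlier results of these data known. Coordinates and gene models are from the deposited table and GENCODE vM21, both GRCm38, with equal positions for the 5 listed *Ms4a* genes. Sequences were aligned with Biopython 1.88, and exact tests used scipy 1.17.1. Some sequences and genes are withheld and not reported here.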

Additional observations from a re-analysis of the deposited data

How the results depend on the processing

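The calls of *Ms4a4c*, *Ms4a6b* and *Ms4a6c* held in each of 16 alternatives, with log2 fold changes of 1.10 to 2.40, 2.81 to 3.78 and 1.90 to 2.63 and largest adjusted p-values of 0.0031, 0.00048 and 0.00038. With each sample left out in turn *Ms4a4c* was 1.70 to 1.84, *Ms4a6b* at least 3.04 and *Ms4a6c* 1.90 to 2.06, and the number of listed genes called was 1238 to 1318. A sample that is then alone in its group is assumed to vary like the others.

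Scaling moved the median log2 fold change of all listed genes from 1.14 to 0.79 by quantile normalization and to 1.79 with equal totals over the listed genes. The number called went from 1343 (787 higher, 556 lower) to 1031 (509 and 522) and 1073 (797 and 276). In these settings *Ms4a4c* was 1.10 and 2.40, *Ms4a6b* 2.86 and 3.78 and *Ms4a6c* 1.91 and 2.63. With a pseudocount of 10 *Ms4a4c* was 1.31. On recovered reads, edgeR gave 1.85, 3.18 and 1.98 and DESeq2 gave 1.86, 3.18 and 1.98 for the 3 genes, and they called 1353 and 1354 genes.

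The replicate block on title numbers, in which *Irf8*-OE sample 3 has no partner, gave 1.82, 3.04 and 2.00 and called 1319 genes, and the block on description numbers gave 1.82, 3.18 and 1.97 and called 1271. Deviations from the group means of same-numbered samples had correlations across 611 genes of -0.003 and 0.021 by title. By description they were -0.021 and -0.018. The deviations of 2 controls mirror each other, so these values are not separate checks. Whether same-numbered samples shared a culture or batch was not tested. *Ms4a4d* lost its call under quantile normalization and was not tested under the filter of 10 normalized counts, and *Ms4a2* kept its call in all 16 alternatives. The differences of the 3 ratios kept their sign in 8 of 8 alternatives each. Depth limits *Ms4a4c* and *Ms4a4d*, which rest on 25 and 5 control reads.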
